A study of Rattus norvegicus with 30 samples.

Results

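Glutathione S-transferases were examined in rat liver through 9 genes, the mu-class Gstm1, Gstm2 and Gstm4, the pi-class Gstp1, the alpha-class Gsta4, the theta-class Gstt1 and Gstt2, the kappa-class Gstk1 and the microsomal Mgst1. Every probe set annotated to 1 of these symbols alone was taken, which gave 10 probe sets of the 31042 tested, and the 9 genes are among 14217 that the array names through such probe sets. They are 1386985_at (Gstm1), 1370952_at (Gstm2), 1375909_at (Gstm4), 1388122_at (Gstp1), 1372297_at (Gsta4), 1368354_at (Gstt1), 1398378_at (Gstk1), 1367612_at (Mgst1) and, for Gstt2, 1368409_at and 1396468_at. RNA of the left liver lobe was measured in 30 female Sprague-Dawley rats of about 10 weeks, 1 Affymetrix rat genome array for each rat. There were 10 rats handled for 1 day, 10 rats handled for 4 days and 10 control rats. Handling meant weighing, restraint, a daily gavage of water and repeated bleeding from the tail vein on the last day, and the control rats were left unhandled. Control rats and those of the shorter handling were killed on the same study day and those of the longer handling later, with no unhandled rats killed then. A difference after 4 days of handling therefore cannot be told apart from one of the study day. The labels name no transgene and no test compound, and each array is a separate animal. The comparisons ask how the level of each transcript in liver differs between handled and unhandled rats and between the handling times.

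Glutathione S-transferases join the tripeptide glutathione to reactive, electrophilic molecules, which makes them more soluble and ready for export from the cell. The cytosolic classes act as pairs of subunits, while the kappa enzyme works in mitochondria and peroxisomes and the microsomal enzyme is set in membranes. The liver holds large amounts of these enzymes, and drugs that act through the regulators NRF2, CAR and PXR raise several of them in rodents. Conjugates leave the cell through transporters such as Abcc2 and are trimmed and acetylated to mercapturates.

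The promoters of the genes on which the results turn are shown first, because Gstm1 and Gstm4, the genes whose levels fell, are chromosomal neighbours and Gstp1 is the member best known for its promoter in rat liver. In the RefSeq annotation of the rat genome build GRCr8, Gstm2, Gstm1 and Gstm4 are neighbours on chromosome 2 in that order, Gstp1 lies next to Gstp3 on chromosome 1, and Gstt1 lies between Gstt4 and Gstt3 on chromosome 20. The sequences are the 250 bases before the RefSeq start of Gstm1 (chr2:198343384-198343633), Gstm4 (chr2:198373384-198373633) and Gstp1 (chr1:210769706-210769955), each on the minus strand and written 5′ to 3′. Capitals mark TATAAA in the Gstm1 window and a match to TGACNNNGC, the core of the antioxidant response element, in the Gstp1 window. The Gstm4 window held neither.
Gstm1: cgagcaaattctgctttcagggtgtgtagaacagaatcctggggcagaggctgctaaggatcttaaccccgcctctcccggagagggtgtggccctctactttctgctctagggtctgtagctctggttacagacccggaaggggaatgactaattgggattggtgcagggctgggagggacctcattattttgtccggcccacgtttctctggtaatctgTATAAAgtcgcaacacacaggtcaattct
Gstm4: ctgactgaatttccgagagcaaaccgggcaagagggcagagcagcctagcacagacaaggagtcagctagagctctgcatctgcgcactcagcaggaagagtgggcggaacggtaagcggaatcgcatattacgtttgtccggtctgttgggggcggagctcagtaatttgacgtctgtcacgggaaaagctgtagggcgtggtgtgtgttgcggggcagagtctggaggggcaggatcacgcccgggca
Gstp1: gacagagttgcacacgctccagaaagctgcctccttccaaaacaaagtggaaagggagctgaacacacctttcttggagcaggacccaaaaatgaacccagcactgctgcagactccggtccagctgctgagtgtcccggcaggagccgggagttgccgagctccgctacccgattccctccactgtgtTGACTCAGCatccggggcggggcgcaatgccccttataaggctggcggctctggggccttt
Windows of 7 members were searched on both strands, and those of Gstt1 and Gstt2 were not used here. TGACNNNGC was found in 1 of the 7 windows, in Gstp1 at 61 bases before the start, and in 10.1% of all 33469 promoter windows of this length. TATAAA was found in 1 of 7, in Gstm1 at 29 bases before the start, and in 12.9% of all windows. The glucocorticoid response element was found in 0 of 7 and in 0.373% of all windows. In global alignments of the mu-class windows, identical bases filled 51.6% of columns, gap columns included, for Gstm2 and Gstm1. The shares were 50.3% for Gstm4 and Gstm1 and 46.4% for Gstm4 and Gstm2. Unrelated windows were not aligned, so these shares are no measure of kinship. These matches describe letters in a window and were not tested for function.

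The values are intensities on a linear scale, with the mean of every array set to 1, and levels of different probe sets are not compared. Differences are given as handled minus control, or 4 days minus 1 day, on the log2 scale, so that a negative value means a lower level in the group named first. Control rats 1, 2 and 3 stood apart from the other 27 rats over all genes: all 3 lay above the other 27 rats in 2.95% of probe sets and below them in 3.03%. Each comparison is given with and without them. The Gapdh control probe sets read the transcript near its 3′ and its 5′ end, and the log2 ratio between them, a sign of RNA integrity, was 0.662 to 0.828 in rats handled for 1 day, 0.701 to 0.963 in rats handled for 4 days and 0.550 to 0.701 in control rats, and all 10 rats handled for 4 days lay above all control rats, the nearest at 0.70086 against 0.70061. Hepatocyte markers, measured for 7 of 8 genes, had a summed intensity of 284 to 303 after 1 day, 279 to 317 after 4 days and 269 to 313 in control rats, and none of the 7 was absent, with control means of 3.47 (Asgr1) to 6.04 (Alb) on the log2 scale. Arrays correlated at 0.946 to 0.976 on the log2 scale, and none were identical.

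**Figure D1:**
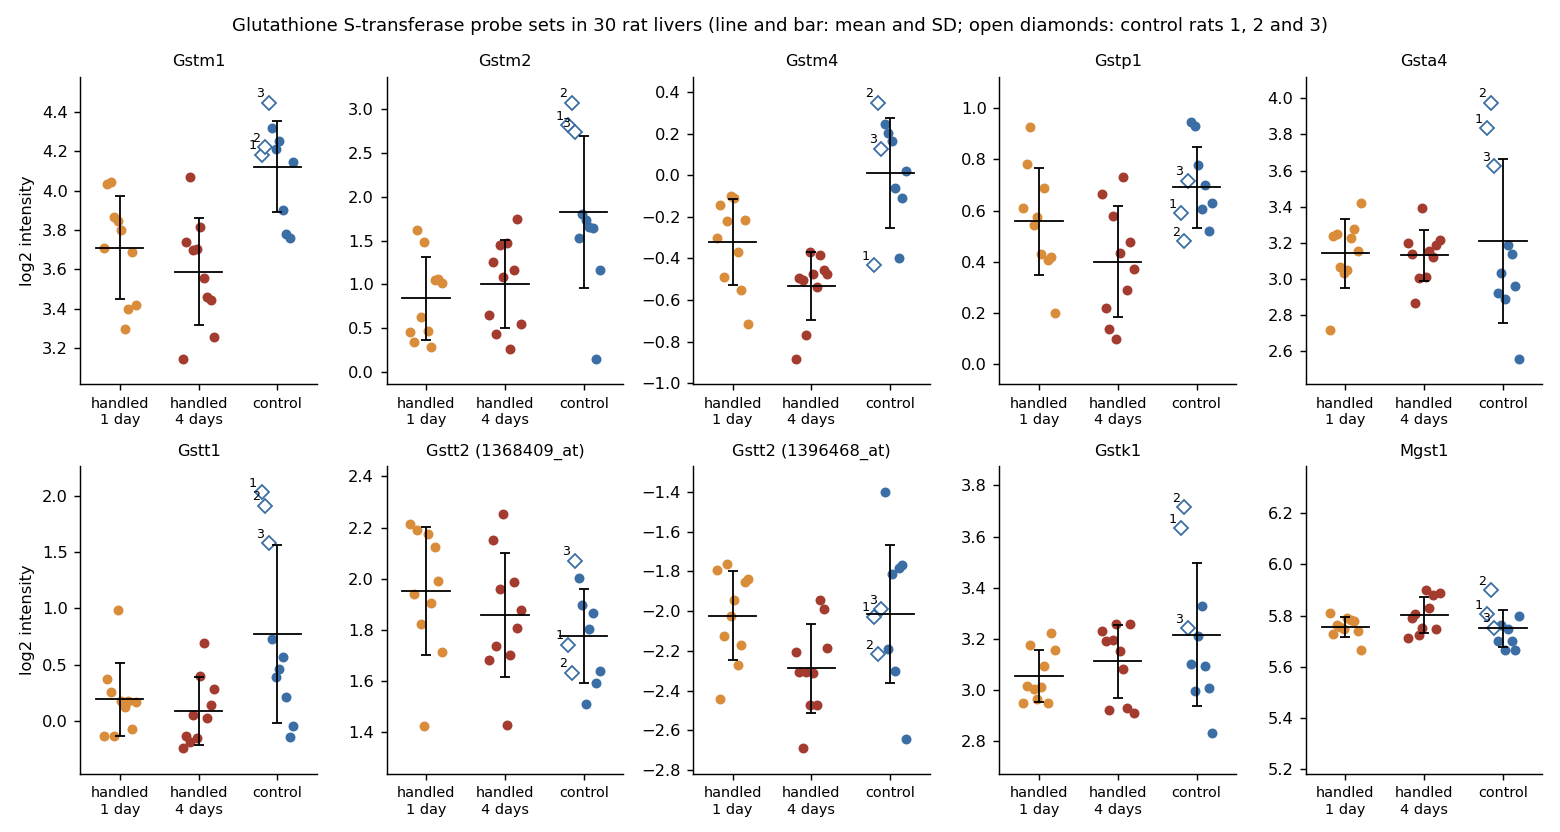
log2 intensity of each transferase probe set in every rat, by group (handled for 1 day, handled for 4 days, control), with the mean and SD of each group (n = 10) and control rats 1, 2 and 3 as open diamonds. Gstm1 and Gstm4 sat lower in handled rats with some overlap, while Gstm2, Gsta4 and Gstt1 were high in the 3 marked control rats.

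Gstm4 and Gstm1 fell after 4 days of handling, and they were the 2 of 10 transferase probe sets that passed an adjusted p under 0.1. Over all probe sets, 0.657% were called in this comparison and 0.37% were called lower. After 1 day of handling 0 of 10 were called, against 0.0902% of all probe sets. An unadjusted p under 0.05 was found for 4 of 10 after 1 day and 6 of 10 after 4 days, against 9.33% and 11.3% of all probe sets. Without control rats 1, 2 and 3, 0 of 10 were called after 1 day (0.329% of all) and 1 of 10, Gstm4, after 4 days (0.828% of all). Of the 10 probe sets, 8 had a negative difference in each comparison with control, as had 50.8% of all probe sets after 1 day and 49.5% after 4 days. The median difference was -0.15 after 1 day and -0.28 after 4 days, against -0.0035 and 0.0022 over all probe sets. The medians without control rats 1, 2 and 3 were -0.078 and -0.26, 7 and 6 of 10 were negative, and 3 and 4 of 10 had an unadjusted p under 0.05. The members were chosen with earlier results of these data known, so these counts and shares are descriptions and no test of the family.

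Gstm4 encodes a mu-class enzyme. Its intensity was 0.609 to 0.934 with a median of 0.835 in rats handled for 1 day, 0.542 to 0.774 with a median of 0.715 in rats handled for 4 days and 0.741 to 1.27 with a median of 1.05 in control rats. Every rat handled for 4 days lay below the control mean and 8 of 10 lay below every control rat, with the lowest control value in rat 1. The difference after 4 days was -0.55 ± 0.099 (log2, SE, n = 10 per group), 0.685-fold, with a 95% interval of -0.75 to -0.34 and an adjusted p of 0.0234 (limma). The study gives Gstm4 as increased by handling, whereas its deposited intensity was lower in handled rats. The study reports symbols of human orthologs, and the direction of its log ratios was not checked here. After 1 day the difference for Gstm4 was -0.33 ± 0.099, which did not pass (adjusted p = 0.252), with 10 of 10 handled rats below the control mean. Without control rats 1, 2 and 3 the difference after 4 days was -0.54 with an adjusted p of 0.0128.

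Gstm1 encodes one of the main mu-class subunits of rat liver. Its intensity was 9.84 to 16.5 with a median of 13.5 in rats handled for 1 day, 8.85 to 16.8 with a median of 12.4 in rats handled for 4 days and 13.5 to 21.8 with a median of 18.3 in control rats. All 10 rats handled for 4 days lay below the control mean, and 8 lay below every control rat. The difference after 4 days was -0.53 ± 0.12, 0.691-fold, with a 95% interval of -0.77 to -0.30 and an adjusted p of 0.0417. After 1 day it was -0.41 ± 0.12 and did not pass (adjusted p = 0.223), with 10 of 10 handled rats below the control mean and 5 below every control rat. Without control rats 1, 2 and 3 the difference after 4 days was -0.46 and no longer passed (adjusted p = 0.112).

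The Gapdh ratio moved with handling. With it as a covariate the differences after 4 days were -0.51 for Gstm4 and -0.56 for Gstm1, with adjusted p of 0.28 and 0.317. In that fit 5 probe sets of 31042 were called. All 10 rats handled for 4 days and 7 of those handled for 1 day had a ratio above every control rat. Fits with this covariate, here and below, can therefore hardly tell the ratio from handling. With only the 2 groups compared in the fit, the adjusted p was 0.0772 for Gstm4 and 0.106 for Gstm1. In a bulk sample, fewer cells of a type and less RNA per cell cannot be told apart.

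**Figure D2:**
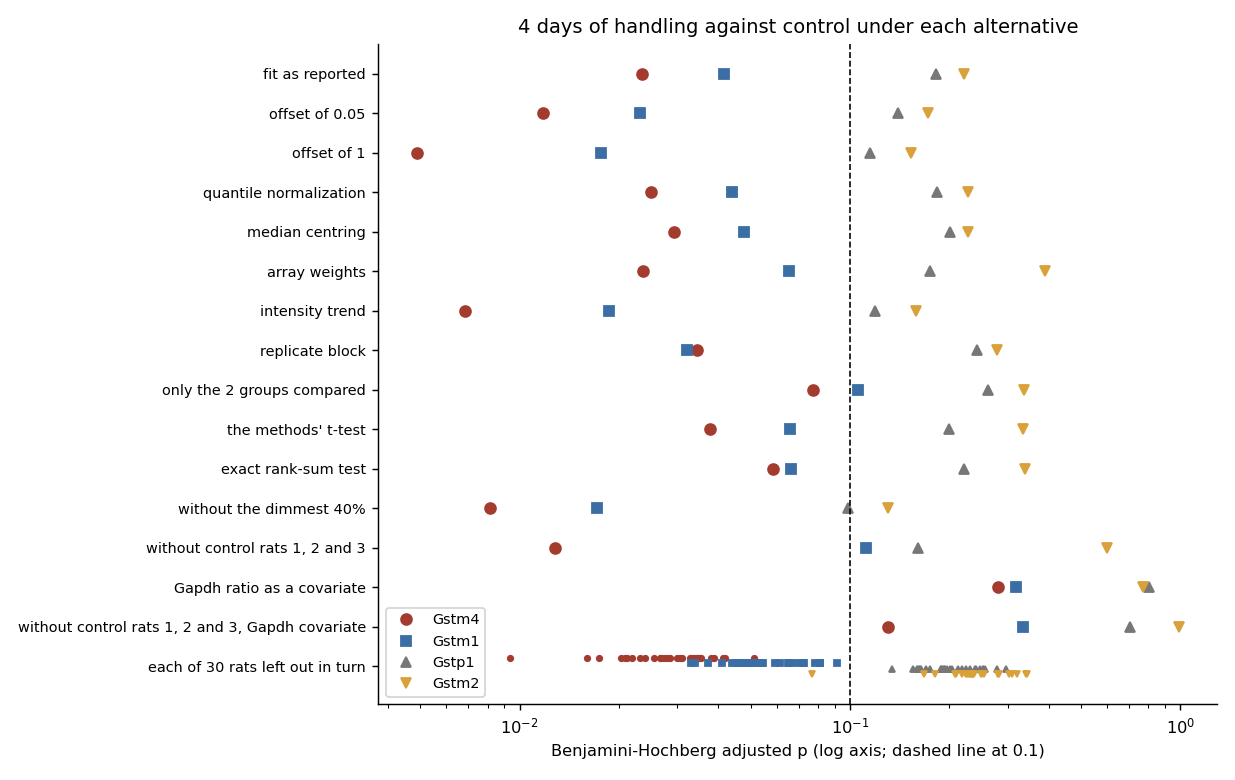
Benjamini-Hochberg adjusted p (log axis, dashed line at 0.1) of Gstm4, Gstm1, Gstp1 and Gstm2 for 4 days of handling against control, in the fit as reported, under each alternative and with each of 30 rats left out in turn. Gstm4 passed in 12 of 14 alternatives and Gstm1 in 10 of 14, and both passed whichever rat was left out.

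Gstm2, another mu-class gene, had the most negative difference after both handling times with all 30 rats. Its intensity was 1.22 to 3.08 with a median of 1.79 in rats handled for 1 day, 1.20 to 3.36 with a median of 2.19 in rats handled for 4 days and 1.11 to 8.42 with a median of 3.24 in control rats. The lowest and the highest rat of the whole series were both controls, rat 9 at 1.11 and rat 2 at 8.42. The difference was -0.99 ± 0.28 after 1 day and -0.82 ± 0.28 after 4 days, and neither passed (adjusted p = 0.223 and 0.222). Without control rat 9 both passed (adjusted p = 0.0663 and 0.077), while without control rats 1, 2 and 3 they shrank to -0.54 and -0.38 (adjusted p = 0.535 and 0.6).

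Gstp1 encodes the pi-class enzyme, which rat hepatocytes normally hold at a low level and which marks early neoplastic foci in rat liver. Its intensity was 1.15 to 1.90 with a median of 1.47 in rats handled for 1 day, 1.07 to 1.66 with a median of 1.32 in rats handled for 4 days and 1.40 to 1.93 with a median of 1.59 in control rats. In 9 of 10 rats handled for 4 days it lay below the control mean. The difference of -0.29 ± 0.091 did not pass (adjusted p = 0.182), and after 1 day it was -0.13 ± 0.091 (adjusted p = 0.687). Without control rats 1, 2 and 3 the differences were -0.33 after 4 days and -0.17 after 1 day, and with the Gapdh ratio as a covariate they were -0.14 and -0.0067. The study gives an increase for this gene too, while the direction here rests on a difference that did not pass. Bile duct epithelium, which also carries this enzyme, had 6 of 8 markers measured, with a summed intensity of 0.695 to 1.12 after 1 day, 0.626 to 1.23 after 4 days and 0.647 to 1.28 in control rats.

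Gsta4 encodes an alpha-class enzyme that conjugates 4-hydroxynonenal, a product of lipid peroxidation. Its intensity was 6.59 to 10.7 with a median of 9.14 in rats handled for 1 day, 7.30 to 10.5 with a median of 8.86 in rats handled for 4 days and 5.89 to 15.7 with a median of 8.50 in control rats. The differences of -0.07 ± 0.13 and -0.08 ± 0.13 did not pass (adjusted p = 0.912 and 0.865). Their sign depended on 3 rats: without control rats 1, 2 and 3 they were 0.19 and 0.17, with 9 of 10 rats of each handled group above the mean of the other 7 controls, and still did not pass (adjusted p = 0.591 and 0.486).

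Gstt1 and Gstt2 encode theta-class enzymes, which act on small halogenated molecules and on organic hydroperoxides. Gstt1 had an intensity of 0.907 to 1.98 with a median of 1.12 in rats handled for 1 day, 0.843 to 1.62 with a median of 1.03 in rats handled for 4 days and 0.902 to 4.11 with a median of 1.43 in control rats. Its differences of -0.58 ± 0.23 and -0.69 ± 0.23 did not pass (adjusted p = 0.421 and 0.216). Without control rats 1, 2 and 3 they were -0.12 and -0.22 (adjusted p = 0.898 and 0.631).

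The 2 probe sets of Gstt2 gave different pictures. The first, 1368409_at, had 2.68 to 4.64 after 1 day, 2.69 to 4.77 after 4 days and 2.85 to 4.20 in control rats, with differences of 0.18 ± 0.10 and 0.08 ± 0.10 (adjusted p = 0.627 and 0.816). The second, 1396468_at, had 0.184 to 0.294 after 1 day, 0.155 to 0.260 after 4 days and 0.160 to 0.379 in control rats, with differences of -0.01 ± 0.12 and -0.27 ± 0.12 (adjusted p = 0.988 and 0.38). Within groups the 2 probe sets hardly correlated over the 27 rats without control rats 1, 2 and 3 (Pearson's r of 0.0744, Spearman's rho of -0.0018). Which transcripts each probe set reads was not examined.

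Gstk1 and Mgst1, the enzymes of the other 2 families, passed in neither comparison. Gstk1, the kappa enzyme, had 7.72 to 9.35 with a median of 8.08 in rats handled for 1 day, 7.52 to 9.57 with a median of 9.01 in rats handled for 4 days and 7.12 to 13.1 with a median of 8.93 in control rats. Its differences of -0.16 ± 0.089 and -0.10 ± 0.089 did not pass (adjusted p = 0.596 and 0.702), and were -0.03 and 0.03 without control rats 1, 2 and 3. Mgst1, the membrane-bound enzyme that also reduces lipid hydroperoxides, had the narrowest ranges relative to its level, with 50.8 to 56.2 after 1 day, 52.5 to 59.7 after 4 days and 50.7 to 59.7 in control rats. Its 95% intervals were -0.08 to 0.10 after 1 day and -0.04 to 0.14 after 4 days, around differences of 0.01 and 0.05.

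**Figure D3:**
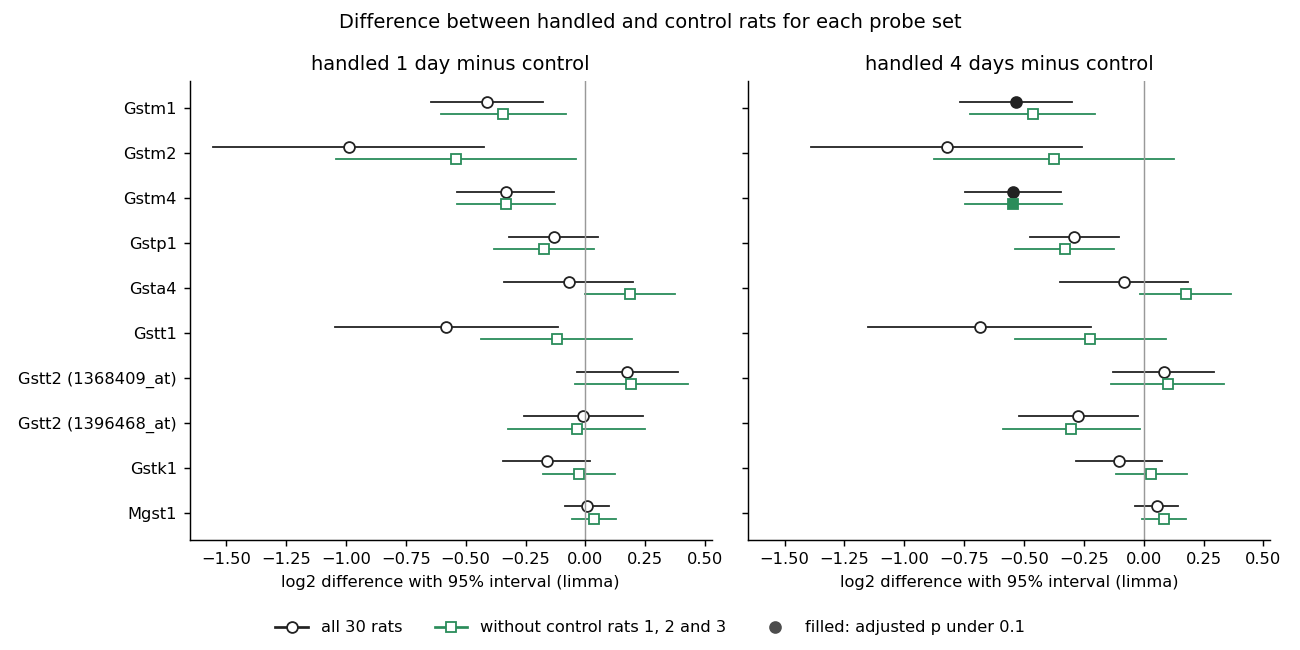
log2 difference between handled and control rats with its 95% interval from limma for each transferase probe set, after 1 day (left) and 4 days (right), with all 30 rats (circles) and without control rats 1, 2 and 3 (squares). Filled symbols passed an adjusted p under 0.1, which Gstm1 and Gstm4 did after 4 days with all rats and Gstm4 alone did without the 3 control rats.

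Between 4 days and 1 day of handling, 0 of 10 transferase probe sets passed, as did 0% of all probe sets (limma), of which 1551 (5%) had an unadjusted p under 0.05. The most negative differences were those of Gstt2 1396468_at at -0.27 ± 0.12 and Gstm4 at -0.21 ± 0.099 (adjusted p = 0.992 each), and all 10 rats handled for 4 days had a lower level of Gstm4 than the mean of the rats handled for 1 day. The unadjusted p of both was under 0.05, at 0.0369 and 0.04, and the 95% interval for Gstm4 was -0.41 to -0.01. Gstm1 differed by -0.12, with an interval of -0.36 to 0.11. Both comparisons with control use the same 10 control rats, so their values for a gene are not independent.

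Control rats 1, 2 and 3 were high in some transferases and not in others. All 3 lay above all other 27 rats in 3 of 10 probe sets, those of Gstm2, Gsta4 and Gstt1, and below them in 0 of 10. Over all probe sets the shares were 2.95% and 3.03%. Gstm2 was at 7.06, 8.42 and 6.67 in these rats, while the other 27 ranged over 1.11 to 3.50. Gsta4 was at 14.3, 15.7 and 12.3, beside 5.89 to 10.7 in the others, and Gstt1 at 4.11, 3.77 and 2.99, beside 0.843 to 1.98. For Gstk1, rats 1 and 2 at 12.4 and 13.1 lay above the range of 7.12 to 10.1 in the other 27 rats, and rat 3 at 9.46 lay within it.

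The mean of the 3 rats over that of control rats 4 to 10 was 2.87 for Gstt1, 2.67 for Gstm2, 1.80 for Gsta4 and 1.37 for Gstk1. It was 1.16 for Gstm1, 1.02 for Gstm4, 1.07 for Mgst1, 0.908 for Gstp1 and 1.04 and 0.908 for the probe sets of Gstt2. Gstm4 was both at its lowest and at its highest control value among these rats, with 0.741 in rat 1 and 1.27 in rat 2. These rats were set apart by the values themselves, so the ratios carry no test.

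**Figure D4:**
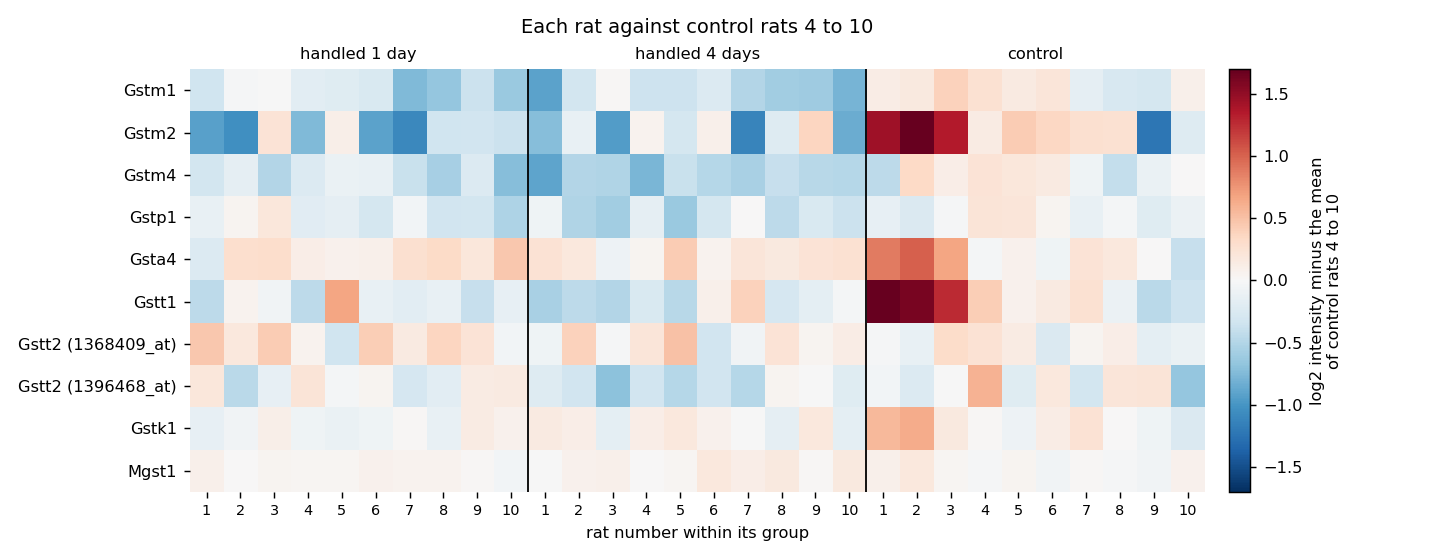
log2 intensity of each transferase probe set in each of 30 rats minus the mean of control rats 4 to 10 (red higher, blue lower), by group (handled for 1 day, handled for 4 days, control). Control rats 1, 2 and 3 are red for Gstm2, Gsta4 and Gstt1, and the handled rats are mostly blue for Gstm1 and Gstm4.

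Among rats of a group, the levels of Gstm1 and Gstm4 were correlated. Over the 27 rats without control rats 1, 2 and 3, with each group centred on its mean, Pearson's r was 0.557 and Spearman's rho 0.519, and r was 0.502 without the 2 rats farthest from the median of Gstm1. Within the groups, r was 0.554 in rats handled for 1 day, 0.325 in rats handled for 4 days and 0.896 in control rats 4 to 10. Of the 45 pairs of probe sets, Gsta4 with Gstk1 had an r of 0.535 and a rho of 0.424, and Gstk1 with Mgst1 had an r of -0.572 and a rho of -0.571. Gstm2 with Gstm4 had an r of 0.0213. Values of a rat share 1 array and its scaling. The replicate number was not taken into account, and these coefficients are descriptions without a test.

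**Figure D5:**
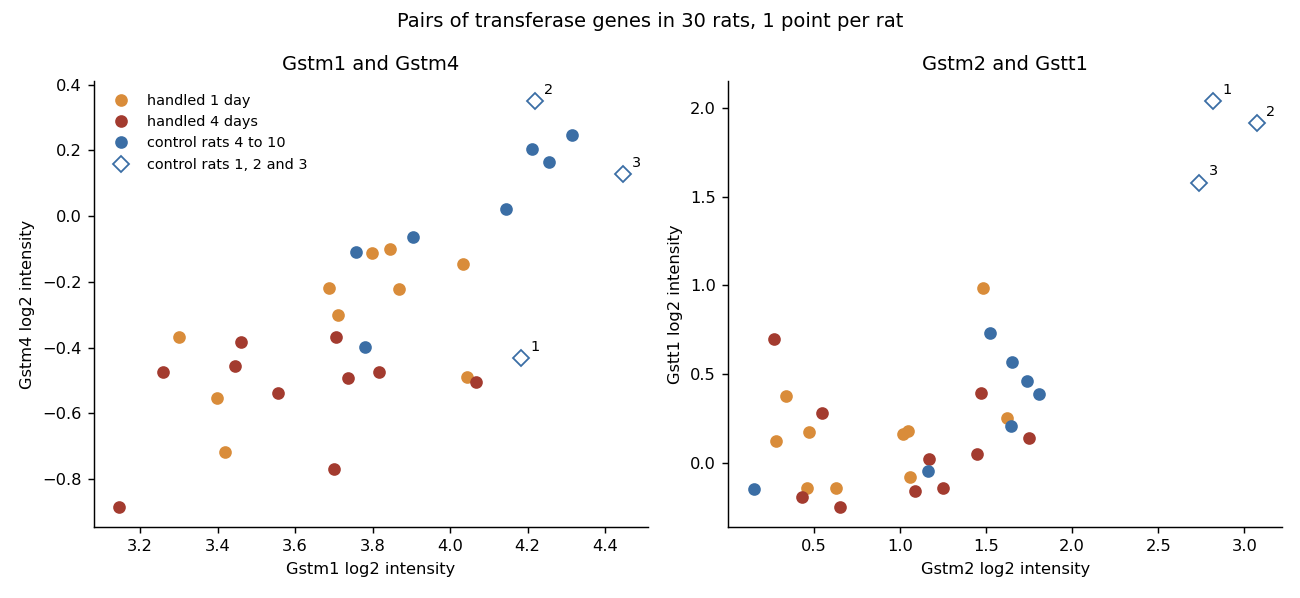
log2 intensity of Gstm1 and Gstm4 (left) and of Gstm2 and Gstt1 (right), 1 point per rat, by group (handled for 1 day, handled for 4 days, control), with control rats 1, 2 and 3 as open diamonds. Rats high in Gstm1 tend to be high in Gstm4, which in these values, not centred by group, includes the difference between groups. The 3 marked rats stand alone at the upper right for Gstm2 and Gstt1.

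Over the same 27 rats, the genes most like Gstm1 were Trmt6 (r = 0.729), Abcc3 (r = 0.711) and Ybx3 (r = 0.711). Those most like Gstm4 were Faf1 (r = 0.696), Mmrn1 (r = 0.664) and Insig2 (r = 0.662), and those most like Gstp1 were Tnfsf12 (r = 0.694), Itm2c (r = 0.682) and Cryab (r = 0.663). They are the highest of all named genes and were chosen for that. None of the 9 passed in either comparison with control, with adjusted p of 0.419 or more.

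Among 17 other glutathione transferases with a probe set of their own, of 23 listed, 0 were called after 1 day or after 4 days. Over all probe sets, 0.0902% and 0.657% were called. The median difference was -0.12 after 1 day and -0.26 after 4 days, and -0.0025 and -0.09 without control rats 1, 2 and 3. Those with the smallest p after 4 days were Mgst2 (-0.29, adjusted p = 0.233), Gstm3 (-0.78, adjusted p = 0.297), Gstcd (-0.26, adjusted p = 0.36) and Mgst3 (-0.32, adjusted p = 0.381). Mgst2, a microsomal enzyme that can also form leukotriene C4, had 5.18 to 7.82 with a median of 6.75 in rats handled for 1 day, 5.28 to 8.05 with a median of 6.74 in rats handled for 4 days and 6.36 to 9.86 with a median of 8.14 in control rats. The summed intensity of the 17 genes was 98.1 to 115 in control rats 1, 2 and 3 and 70.1 to 79.9 in control rats 4 to 10, beside 68.0 to 86.5 after 1 day and 71.3 to 81.3 after 4 days. Such a sum rests on its brightest genes. Gstt3 was at 22.7, 19.1 and 11.2 in the 3 rats and at 3.11 to 5.38 in control rats 4 to 10. In handled rats Gstt3 was at 2.00 to 11.6 after 1 day and 1.58 to 8.45 after 4 days. Gsto1 was not higher, at 8.94, 7.94 and 9.56 beside 8.68 to 12.6. Control rats 1, 2 and 3 were all above the other 27 in 2 of the 17, Gstz1 and Mgst3, named after their values were seen. Over all probe sets the share was 2.95%.

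Downstream of the transferases, 15 of 17 genes of the mercapturate pathway were measured. Of these, 1 was called after 1 day and 1 after 4 days, against 0.0902% and 0.657% of all probe sets. Nat8, which acetylates cysteine conjugates in the last step, rose after 1 day by 0.83 ± 0.16 (adjusted p = 0.0543). Its intensity was 1.19 to 3.13 with a median of 2.38 in rats handled for 1 day, 1.34 to 2.18 with a median of 1.83 in rats handled for 4 days and 0.686 to 1.50 with a median of 1.18 in control rats. Its difference of 0.59 after 4 days did not pass (adjusted p = 0.104). Abcc2, the pump of the bile canaliculus for glutathione conjugates, fell after 4 days by 0.45 on the log2 scale (adjusted p = 0.0847), with 6.63 to 9.38 and a median of 7.76 in rats handled for 4 days and 6.34 to 14.3 and a median of 10.9 in control rats. The difference of Abcc2 without control rats 1, 2 and 3 was -0.57 (adjusted p = 0.0128). With the Gapdh ratio as a covariate the 1-day difference of Nat8 was 0.86 and the 4-day difference of Abcc2 was -0.39, and neither passed (adjusted p = 0.366 and 0.501). The other members did not pass with all rats. Cndp2, a dipeptidase, passed after 4 days without these 3 rats (0.30, adjusted p = 0.0545), and Abcc2 then passed after 1 day as well (-0.44, adjusted p = 0.0752). With all rats the unadjusted p of Cndp2 after 4 days was 0.82 (limma). The 3 rats, at 1.36, 1.84 and 1.83, lay above all others in Cndp2, the highest of which was at 1.20.

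Upstream, all 11 listed genes of glutathione supply were measured, and 1 rose after 1 day while 1 rose and 1 fell after 4 days. The shares called over all probe sets were 0.0902% and 0.657%. Oplah, which opens the ring of oxoproline in the glutathione cycle, rose by 0.57 after 1 day (adjusted p = 0.0279) and by 0.44 after 4 days (adjusted p = 0.0412). Its intensity was 1.34 to 2.09 in rats handled for 1 day, 1.12 to 1.88 in rats handled for 4 days and 0.995 to 1.28 in control rats. With the Gapdh ratio as a covariate its differences were 0.49 and 0.35 and did not pass (adjusted p = 0.366 and 0.438), and that of Gss was -0.44 (adjusted p = 0.488). Gss, glutathione synthetase, fell after 4 days by 0.50 on the log2 scale (adjusted p = 0.0784), and did not pass without control rats 1, 2 and 3 (adjusted p = 0.149). For Gss, too, the study gives an increase, with the same limits. Gclc and Gclm, the subunits of the rate-limiting enzyme of glutathione synthesis, differed by 0.06 and 0.01 after 4 days (adjusted p = 0.89 and 0.982).

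Of 16 measured NRF2 targets, 0 passed after 1 day (0.0902% of all probe sets) and 1 fell after 4 days (0.657% called of all). That was Ephx1, microsomal epoxide hydrolase, with a difference of -0.86 ± 0.18 (adjusted p = 0.0412) and values of 4.34 to 9.12 in rats handled for 4 days and 6.44 to 21.1 in control rats. Without control rats 1, 2 and 3, which had 15.9, 15.3 and 21.1, the difference was -0.63 and did not pass (adjusted p = 0.12), and with the Gapdh ratio as a covariate it was -0.88 (adjusted p = 0.304). These 3 rats lay above all others in 5 of the 16 genes, Nqo1, Pgd, Taldo1, Tkt and Ephx1, named after their values were seen. Over all probe sets the share was 2.95%. Of the 5, Pgd, Taldo1 and Tkt belong to the pentose phosphate pathway. Not all members were high in these rats. Ugdh, at 5.99, 6.62 and 7.31, lay below all others, the lowest of which was at 7.85. Cbr1, at 0.598 to 0.642, lay below the other control rats, at 0.652 to 0.841. Handled rats were at 0.585 to 0.894 after 1 day and 0.613 to 0.891 after 4 days. Nqo1, the quinone reductase often read for NRF2 activity, differed by -0.31 after 1 day and -0.16 after 4 days (adjusted p = 0.673 and 0.825).

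Few marker genes of other liver cells were called, with 0.657% of all probe sets called after 4 days. After 4 days, 1 of 6 markers of T and NK cells fell, Nkg7 with a difference of -0.42 (adjusted p = 0.0902, and 0.326 with the Gapdh covariate), and 0 were called among 7 measured markers of hepatocytes, 6 of bile duct epithelium, 7 of Kupffer cells, 6 of sinusoidal endothelium, 8 of stellate cells and 3 of erythroid cells. Kupffer cell markers summed to 22.0 to 34.6 after 1 day, 19.6 to 27.1 after 4 days and 22.2 to 34.7 in control rats. After 4 days 6 of 7 were lower, with a median difference of -0.24, against 0.0022 over all probe sets. Without control rats 1, 2 and 3 the median was -0.33, against -0.0035, again with 6 of 7 lower. The 6 T and NK cell markers were dim, beside array medians of 0.118 to 0.125 for a single probe set. They summed to 0.476 to 0.669 after 1 day, 0.383 to 0.587 after 4 days and 0.407 to 0.668 in control rats. The part of these cells in the differences of Gstm1 and Gstm4 was not tested.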

How the data were processed

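Total RNA of the left liver lobe was labelled with the GeneChip 3′ IVT Express method. The deposited values are linear intensities. As the values show, the authors brought each array to a mean of 1; quality checks and data analyses used GeneChip Operating Software, and the summary method behind the values is not given in the sources used here. The authors' own log10 ratios were not used. Of 31099 probe sets, 57 controls were left out. Symbols are those of GEO's platform annotation. No offset was added before log2, and the 3 groups were fitted together in limma 3.58.1 (R 4.3.3, lmFit and eBayes, two-sided), with Benjamini-Hochberg adjustment over all 31042 probe sets and a call at an adjusted p under 0.1. A listed gene is read from its brightest probe set. Named are all members, called genes of each list and up to 4 others of smallest p, and the 3 genes most like Gstm1, Gstm4 and Gstp1. The members and lists were chosen with earlier results of these data known. The fit was tested on simulated data. Alternatives were offsets of 0.05 and 1, quantile normalization, median centring, array weights, an intensity trend, a replicate block, 2-group fits, the methods' t-test, an exact rank-sum test, leaving out the dimmest 40% of probe sets, thresholds of 0.05 adjusted and 0.001 unadjusted, leaving out control rats 1, 2 and 3, the Gapdh ratio as a covariate, and each rat left out in turn. Leaving out control rats 1, 2 and 3 together with the Gapdh covariate was added after seeing the data. The number of arrays limits the precision. Figures were made with matplotlib 3.10.9 (Python 3.11.15).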

Additional observations from a re-analysis of the deposited data

Results flagged for a closer look

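Gstt1 in rats handled for 1 day had 1 rat far above the others, rat 5 with an intensity of 1.98 against 1.30 in the next highest rat. On the log2 scale, its gap to that rat was 0.543 of the range of the group, above Dixon's critical value for 10 rats. Of 30 groups of values tested in this way, 1 had such a rat, and chance gives about 1 in 20.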

How the results depend on the processing

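After 1 day of handling, 0 of 10 transferase probe sets were called under each of 16 alternatives, and 0 to 1 with a rat left out, the 1 being Gstm2 without control rat 9. After 4 days, 2 were called, 2 to 3 with a rat left out, 1 with only the 2 groups compared, 1 without control rats 1, 2 and 3 (Gstm4 in both), 0 with the Gapdh ratio as a covariate and 0 with the covariate and without the 3 rats. Leaving out the dimmest 40% of probe sets added Gstp1 (adjusted p = 0.0985). Between 4 days and 1 day, 0 were called throughout. Over all probe sets the calls after 1 day numbered 28, with 0 under the covariate and 144 at the study's threshold as extremes, and after 4 days 204, with 5 and 490 as extremes, the second without the dimmest 40%. Left out in turn, rats gave 1 to 44 and 86 to 307 calls.

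Across probe sets, replicate numbers showed no general pairing of the rats: same-numbered deviations correlated at -0.0382 to 0.118. For a single gene the block could matter. With it, the unadjusted p of Gstm1 was 3.3e-05 after 1 day and 1.04e-06 after 4 days (limma). Without the block these values were 0.00122 and 6.79e-05. With the replicate number as a block, 0, 2 and 0 members and 2, 85 and 0 probe sets were called after 1 day, after 4 days and between them, and no member's call changed. Among the other genes, the block ended the calls of Nat8 and Oplah after 1 day and of Abcc2, Gss and Nkg7 after 4 days (adjusted p = 0.164, 0.107, 0.133, 0.149 and 0.115). With each of 30 rats left out in turn, Oplah and Ephx1 stayed called in all 30 fits, Nat8 in 26, Abcc2 and Gss in 18 each and Nkg7 in 15. With only the 2 groups compared, Oplah stayed called at both times (adjusted p = 0.0844 each). The calls of Nat8, Abcc2, Gss, Ephx1 and Nkg7 then ended (adjusted p = 0.143, 0.221, 0.109, 0.109 and 0.188). The methods' t-test and the exact rank-sum test ended those of Nat8 (adjusted p = 0.108 and 0.159), Abcc2 (0.171 and 0.222) and Nkg7 (0.126 and 0.13). Array weights ended that of Gss (adjusted p = 0.109).

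The sign turned in 35 of 1320 values of single probe sets, none of them a called difference. After 1 day, quantile normalization gave 0.0089 for Gstt2 1396468_at and -0.015 for Mgst1, and the covariate gave 0.080 and -0.0072. Array weights gave 0.055 for Gsta4 after 1 day and 0.041 after 4 days. Without the 3 rats, Gsta4 was at 0.19 after 1 day and 0.17 after 4 days, and Gstk1 at 0.031 after 4 days, where the covariate gave 0.0039. Without the 3 rats and with the covariate, the values after 1 day were 0.29 for Gsta4, 0.055 for Gstt2 1396468_at and 0.093 for Gstk1, those after 4 days were 0.30 for Gsta4, 0.17 for Gstk1 and 0.020 for Gstm2, and Gsta4 differed by 0.0058 between 4 days and 1 day. With a rat left out, Gsta4 ranged over -0.14 to 0.016 after 1 day, -0.15 to 0.0028 after 4 days and -0.060 to 0.018 between them, Gstt2 1396468_at over -0.078 to 0.059 and Mgst1 over -0.0029 to 0.023 after 1 day. The causes were not tested. Of the 1320 values, 1276 kept their sign and their side of the threshold, 6 lost a call (4 of Gstm1 and 2 of Gstm4 after 4 days) and 3 gained 1 (Gstm2 without control rat 9 after 1 and 4 days, Gstp1 after 4 days without the dimmest 40%).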
